A study of Mus musculus with 4 samples.

Results

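The genes described here are 48 regulators of apoptosis and targets of the transcription factor p53, taken by symbol from a count table. The table has 23874 rows, each called a gene below. They cover the BCL2 family, caspases, inhibitors of apoptosis and death receptors. Further members are p53 with its relatives and regulators, growth arrest and stress genes, and genes that p53 is known to control. All 48 were found, all 48 had at least 1 count, and 45 had enough counts to be tested. The libraries come from engineered neural tissue of the mouse, in which neurospheres (free-floating balls of neural stem and progenitor cells) were set in Matrigel, a basement membrane gel, under medium with N2, B27 and 20 ng/ml basic fibroblast growth factor. In the EF group a field of 150 mV/mm was applied daily for 30 min on 3 days, and culture went on for 7 days before RNA was taken, and the noEF group was the same tissue without stimulation. Sample labels call both groups engineered tissue, whereas the series design speaks of stem cell suspensions as the control. 2 libraries per group were analysed, against 3 replicates per group in the labels, and no label says whether they are separate cultures, so the p-values measure the spread between these libraries, which may be technical. No strain, age or donor animal is given. Totals ran from 33748880 to 34554537 counts per library, and levels are given in CPM, counts relative to the size of the library, in which 3 counts are 0.0840 to 0.0922 CPM.

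Apoptosis by the mitochondrial route starts when BH3-only proteins neutralise the anti-apoptotic BCL2 proteins or activate the pore formers BAX and BAK, which release cytochrome c to assemble the apoptosome and switch on caspases. Death receptors at the cell surface feed the same caspases through adaptors, and inhibitor of apoptosis proteins hold caspases in check. p53 is kept low by MDM2 and MDM4 and, when DNA is damaged or cells are stressed, raises genes of growth arrest, DNA repair and death, among them Mdm2 itself. In neural progenitors this system is known to remove damaged cells, and because p53 is controlled mostly at the protein level, the transcripts of its targets are the usual readout of its activity.

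The EF libraries were compared with the noEF libraries. Of the 45 tested genes, Casp2 and Bok were higher in EF, and Casp6 and Gadd45b were lower in edgeR's quasi-likelihood test, with p-values adjusted by the Benjamini-Hochberg method over every gene tested. Those 4 are 8.89% of the 45, and the same test called 8.82% of all 14263 tested genes (3.83% higher, 4.99% lower), so the share among apoptosis and p53 genes was near the background. At an unadjusted p under 0.05 stood 11 of the 45 (24.4%) against 23.8% of all tested genes. The median log2 fold change (EF minus noEF) was -0.05 for the 45 genes and 0.01 for all tested genes, with 20 above 0 and 25 below. No gene of the 45 differed 2-fold: the values ran from -0.62 to 0.63, and 4 lay beyond 0.5 either way (8.89%, against 20.5% of all tested genes). The groups' libraries did not overlap for 25 of the 45, 11 higher and 14 lower in EF, where 54.4% of all tested genes did not overlap (27.6% higher, 26.8% lower).

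**Figure D1:**
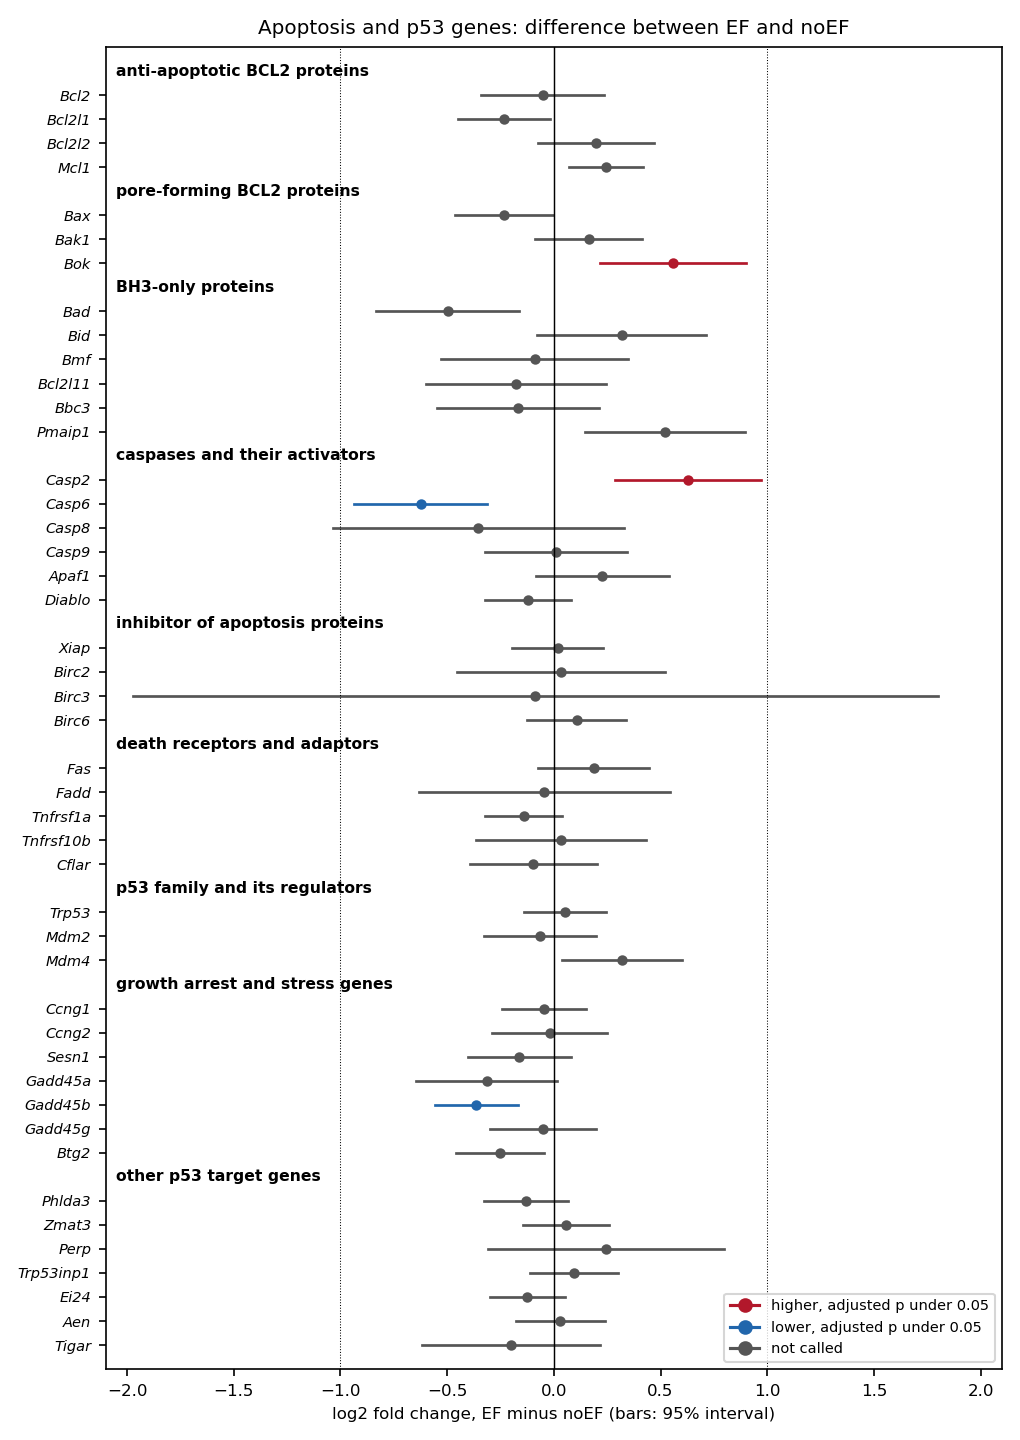
Log2 fold change (EF minus noEF) of the 45 tested genes by role, with unadjusted 95% intervals from edgeR's quasi-likelihood fit. Dotted lines mark a 2-fold difference; the intervals of 43 genes stay inside them, and Casp8 and Birc3 reach beyond.

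Where a gene did not pass, the interval shows how large a difference these libraries still allow. For 43 of the 45 genes the 95% interval of the log2 fold change lay within 2-fold either way, and for 31 it lay within 1.5-fold. Of all 14263 tested genes 10273 had an interval within 2-fold and 7059 within 1.5-fold. Wider intervals were those of Casp8 (-1.04 to 0.33) and Birc3 (-1.97 to 1.80), both among the least abundant tested genes. The cumulative distribution of the fold changes places the 45 genes close around 0, with a median absolute value of 0.16 against 0.22 for all tested genes. The 45 genes were also more abundant (median 31.3 against 21.2 CPM), and the part of abundance in this was not tested.

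**Figure D2:**
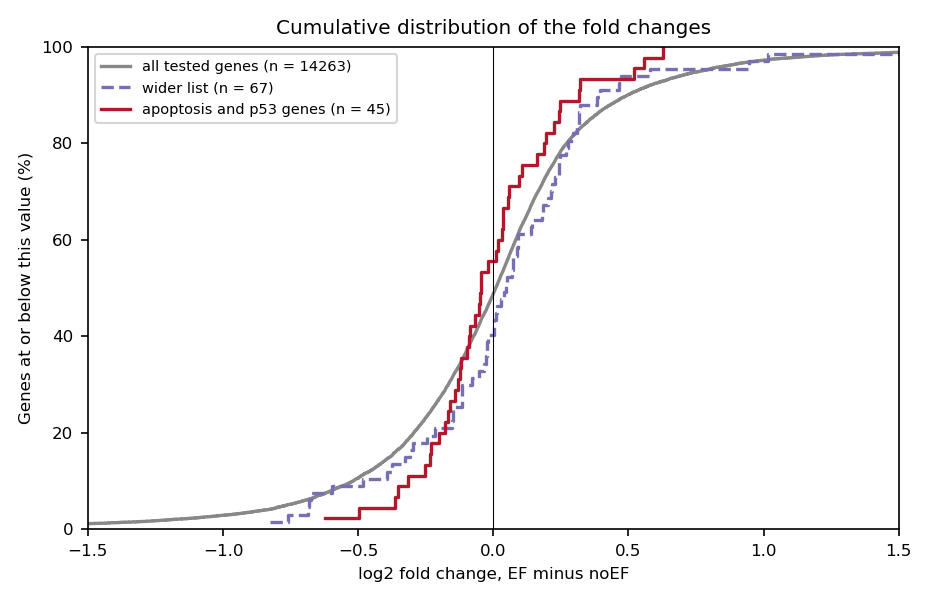
Cumulative share of genes (vertical axis, %) by log2 fold change (horizontal axis, drawn from -1.5 to 1.5) for all 14263 tested genes, the 67 tested genes of a wider death and p53 list and the 45 tested apoptosis and p53 genes. The medians are 0.01, 0.05 and -0.05.

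The group of caspases, the proteases that carry out apoptosis, and their activators held 2 of the 4 called genes. Both are caspases, and they went in opposite directions. That is 2 of 6 tested genes (33.3%, against 8.82% of all tested genes), too few genes to read as a result about the group. Casp2 encodes caspase-2, which is activated on the PIDD platform after DNA damage or failed division (ENSMUSG00000029863, GRCm38 chromosome 6, 42264985 to 42282508). It was at 20.6 and 23.6 CPM in the EF libraries and at 15.4 and 13.1 CPM in the noEF libraries. Both EF libraries lay above both noEF libraries, and the log2 fold change was 0.63 (SE 0.16; adjusted p = 0.0248 in edgeR), or 1.55-fold. Casp6, the executioner caspase that cleaves lamins (ENSMUSG00000027997, chromosome 3, 129901425 to 129914103), was at 15.6 and 17.5 CPM in EF and at 25.0 and 26.0 CPM in noEF. Here both EF libraries were the lower ones, with a fold change of -0.62 on the log2 scale (SE 0.15; adjusted p = 0.0163 in edgeR), 1.54-fold lower than noEF. Within a library, where scaling cancels, there were 0.756 and 0.743 Casp6 counts per Casp2 count in EF and 1.62 and 1.98 in noEF (a ratio chosen after the values were seen). The Casp2 call was lost without EF 2 (log2 fold change 0.53, edgeR adjusted p = 0.123) and without noEF 2 (0.52, edgeR adjusted p = 0.0828), and the Casp6 call without EF 1 (-0.54, edgeR adjusted p = 0.122), with the direction unchanged in each.

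The other 4 genes of this group did not pass. Casp9, which encodes the caspase of the apoptosome, was at 16.2 and 16.8 CPM in EF and 16.3 and 16.4 CPM in noEF, so all 4 libraries lay within 1 CPM (log2 fold change 0.01, 95% interval -0.32 to 0.34). Apaf1, the scaffold of the apoptosome, was at 23.4 and 21.5 CPM in EF and 18.4 and 20.1 CPM in noEF. Its EF libraries were above its noEF libraries, but the difference of 0.23 (SE 0.15) missed the threshold (edgeR adjusted p = 0.381). Diablo, whose product displaces inhibitors from caspases, had a log2 fold change of -0.12 (interval -0.32 to 0.08). Casp8, the initiator behind death receptors, stayed between 2.83 and 3.98 CPM with both EF libraries below both noEF libraries (-0.35, edgeR adjusted p = 0.556). Exons of Casp9 and Diablo overlap genes on the opposite strand, and 7 of the 48 genes overlap another gene in this way or on their own strand.

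Among the 3 pore formers Bok was the called gene (33.3%, against 8.82% of all tested genes). BOK is a BAX-like protein that is regulated by its turnover (ENSMUSG00000026278, chromosome 1, 93685660 to 93695764). Its level was 23.9 and 21.2 CPM in EF against 16.9 and 13.7 CPM in noEF. The groups did not overlap, and the log2 fold change was 0.56 (SE 0.16, edgeR adjusted p = 0.0431), or 1.47-fold. This call stood close to the threshold and was lost without EF 1 (0.47, edgeR adjusted p = 0.236), without EF 2 (0.64, edgeR adjusted p = 0.0544) and without noEF 2 (0.41, edgeR adjusted p = 0.179). Bax, the main pore former (ENSMUSG00000003873, chromosome 7, 45461697 to 45466898), was at 201 and 237 CPM in EF and 280 and 234 CPM in noEF. EF 2 and noEF 2 were alike, and EF 1 was low and noEF 1 high, giving -0.23 (SE 0.11, edgeR adjusted p = 0.207). Without noEF 2 Bax was called lower (-0.36, edgeR adjusted p = 0.0205), and after removal of each library's trend with gene length and GC content it was at 0.03 (edgeR adjusted p = 0.847). Bak1, which can stand in for Bax, overlapped between groups at 41.9 to 52.7 CPM.

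**Figure D3:**
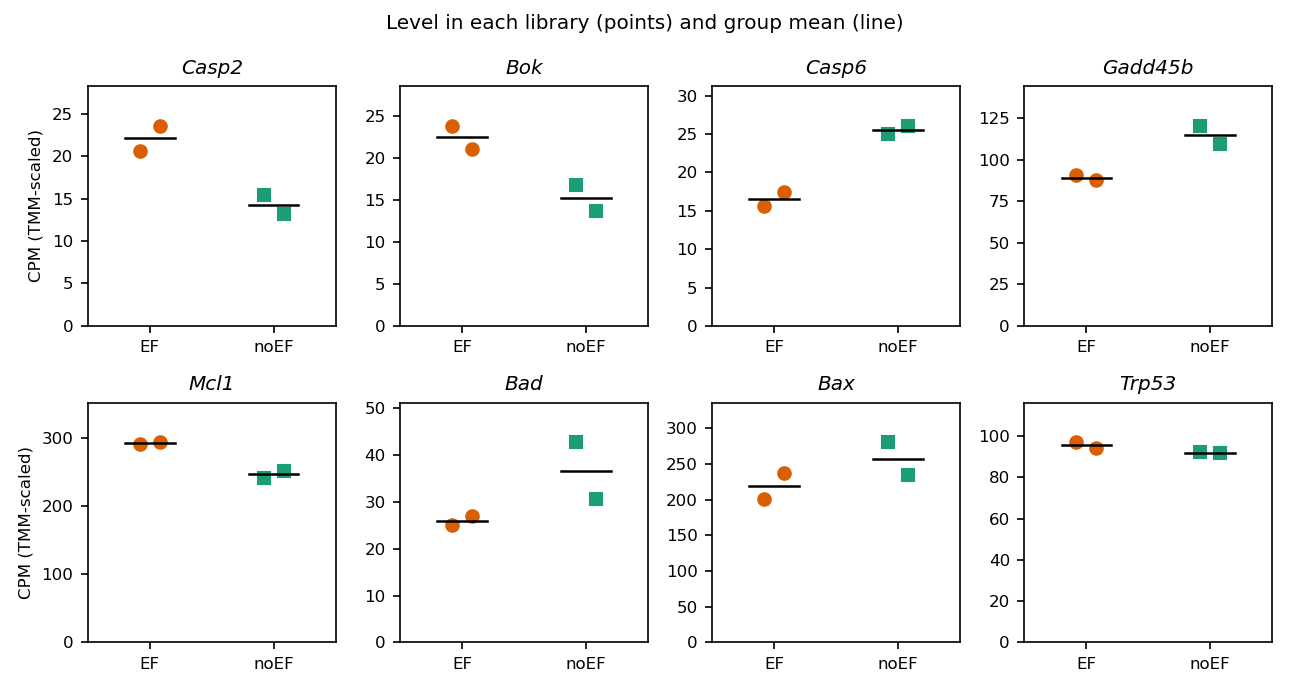
CPM in each library (points; vertical axes start at 0) with the group mean (line) for the 4 called genes in the top row and for Mcl1, Bad, Bax and Trp53 below. The EF and noEF points overlap for Bax and are apart for every other gene drawn, called or not, as they are for 54.4% of all tested genes.

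None of the 4 anti-apoptotic BCL2 genes passed, where 8.82% of all tested genes did, and they did not move one way. Mcl1, a short-lived survival protein on which neural progenitors depend (ENSMUSG00000038612, chromosome 3, 95658788 to 95663176), was the most abundant of them. It was at 291 and 293 CPM in EF and at 242 and 251 CPM in noEF. Both EF libraries were higher, by 0.25 (SE 0.08), with an edgeR adjusted p of 0.074 that passed the threshold with library totals, with no filter, with DESeq2 and after that same trend removal (adjusted p between 0.0163 and 0.0444). Bcl2l1, which encodes BCL-XL, went the other way: 66.1 and 59.1 CPM in EF were both below the 72.5 and 74.5 CPM of noEF (-0.23, SE 0.10, edgeR adjusted p = 0.173). Bcl2 itself was at 25.2 and 24.7 CPM in EF and 24.6 and 27.0 CPM in noEF, overlapping values with a log2 fold change of -0.05 (interval -0.34 to 0.24). Bcl2l2, which encodes BCL-W, had 0.20 (interval -0.08 to 0.47). The ratio of Bax to Bcl2, a common index of readiness for apoptosis, was taken here on RNA counts and was chosen after the values were seen. It was 7.98 and 9.61 in EF and 11.4 and 8.67 in noEF. These ratios overlapped between the groups, and RNA counts measure neither protein nor caspase activation. Of 2 more ratios chosen in the same way, Mcl1 counts per Bax count were 1.45 and 1.24 in EF and 0.864 and 1.07 in noEF, without overlap. Bcl2l1 counts per Bax count were 0.329 and 0.249 in EF and 0.259 and 0.318 in noEF, with overlap, and all 3 ratios rest on Bax, whose difference went to 0.03 once the trend was removed.

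BH3-only proteins relay damage and stress signals to the BCL2 family. Of their 6 tested genes 0 passed, where 8.82% of all tested genes did, and the median was -0.13. Bad, which links growth factor signals to BCL-XL, had the smallest p of them. Its EF libraries held 25.0 and 27.0 CPM, below the noEF libraries at 42.7 and 30.7 CPM. The noEF libraries differed from each other by more than noEF 2 differed from EF, and -0.50 (SE 0.16) missed the threshold (edgeR adjusted p = 0.0631). It was called without noEF 2, with no filter and with a filter at 1 CPM (in 2 or more libraries); the value was -0.24 without noEF 1 and -0.72 without noEF 2. Exons of Bad overlap Gpr137 on the opposite strand. Pmaip1, which encodes the p53-inducible NOXA that binds MCL1, was at 14.0 and 14.4 CPM in EF and 9.62 and 10.1 CPM in noEF, apart by 0.52 (SE 0.18, edgeR adjusted p = 0.079), and with library totals it was called higher (0.61, edgeR adjusted p = 0.0356). Bbc3, which encodes PUMA, the other classical p53-inducible BH3-only protein, overlapped at 22.7 and 29.6 CPM in EF and 33.8 and 25.0 CPM in noEF (-0.17, interval -0.55 to 0.21). Bid, Bmf and Bcl2l11, which encodes BIM, had log2 fold changes of 0.32, -0.09 and -0.18 at 7.80 to 15.05 CPM. Bik had 14 counts in EF 2 and 0 in each other library, where 3 counts, the limit that a count of 0 allows, would be 0.0840 to 0.0922 CPM, and it was not tested.

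The inhibitors of apoptosis and the death receptor genes held no called gene, where 8.82% of all tested genes were called. None of the 4 inhibitor genes passed, and their values ran from -0.09 to 0.11. Xiap, the direct inhibitor of caspases, was at 78.3 and 76.9 CPM in EF and 71.2 and 82.1 CPM in noEF, so the noEF libraries enclosed both EF libraries (0.02, interval -0.20 to 0.23). Birc6, a giant ubiquitin ligase, was at 51.4 and 58.1 CPM in EF against 51.1 and 50.5 CPM in noEF, with EF 2 the high library (0.11, edgeR adjusted p = 0.61). Birc2 spanned 7.84 to 12.6 CPM within noEF alone, and Birc3 had 12 to 21 counts per library. Of the 5 death receptor and adaptor genes 0 passed. Tnfrsf1a, the receptor for tumour necrosis factor and the most abundant of them, was at 189 and 192 CPM in EF and 220 and 201 CPM in noEF (-0.14, SE 0.08, edgeR adjusted p = 0.339). Fas was at 39.2 and 38.9 CPM in EF and 36.0 and 32.7 CPM in noEF, a log2 fold change of 0.19 (interval -0.07 to 0.45). Tnfrsf10b, Fadd and Cflar, the last an inhibitor of caspase-8, were at 0.04, -0.05 and -0.10.

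The p53 transcript did not pass the test. Trp53 (ENSMUSG00000059552, chromosome 11, 69580359 to 69591873) was at 96.8 and 93.9 CPM in EF and 92.3 and 91.5 CPM in noEF. Both EF libraries lay just above both noEF libraries, and the log2 fold change was 0.05 (SE 0.09, 95% interval -0.14 to 0.24, edgeR adjusted p = 0.782). Mdm2, the ubiquitin ligase that degrades p53 and is also its target, was at 35.4 and 38.0 CPM in EF and 36.5 and 40.4 CPM in noEF, overlapping values (-0.07, interval -0.33 to 0.20). There were 0.366 and 0.405 Mdm2 counts per Trp53 count in EF and 0.395 and 0.442 in noEF, also overlapping. Mdm4, which masks the activation domain of p53, was higher in both EF libraries at 32.0 and 35.6 CPM against 28.5 and 25.7 CPM, but 0.32 (SE 0.13) did not pass (edgeR adjusted p = 0.153). The relatives were almost silent: Trp63 had 4 to 13 counts per library, and Trp73 had 30 counts in EF 1 and 0 in each other library, so neither was tested.

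Read next for a shared shift were growth arrest and stress genes, not all of them p53-induced, and genes that p53 is known to switch on. To show what such a promoter looks like, the 250 bases before the transcription start of Ccng1, Mdm2 and Bax are given from RefSeq (GRCm38.p6), since these are well known p53 targets whose window holds a match to the p53 decamer, the 10-base unit of 3 purines, C, 2 letters that are A or T, G and 3 pyrimidines that p53 binds as a pair. Capitals mark the match, and each sequence is written 5′ to 3′ on the minus strand, where all 3 genes lie, at chr11:40755287-40755536, chr10:117710759-117711008 and chr7:45466899-45467148.
Ccng1: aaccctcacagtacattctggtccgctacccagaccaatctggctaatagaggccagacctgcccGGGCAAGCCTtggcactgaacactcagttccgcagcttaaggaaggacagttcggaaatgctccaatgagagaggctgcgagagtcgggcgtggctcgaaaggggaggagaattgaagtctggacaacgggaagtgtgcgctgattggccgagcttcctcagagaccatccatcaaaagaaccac
Mdm2: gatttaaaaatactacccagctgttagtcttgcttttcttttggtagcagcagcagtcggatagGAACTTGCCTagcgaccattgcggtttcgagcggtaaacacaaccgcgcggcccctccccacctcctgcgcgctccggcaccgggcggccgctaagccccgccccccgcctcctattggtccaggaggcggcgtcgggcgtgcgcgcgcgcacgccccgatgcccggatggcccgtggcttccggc
Bax: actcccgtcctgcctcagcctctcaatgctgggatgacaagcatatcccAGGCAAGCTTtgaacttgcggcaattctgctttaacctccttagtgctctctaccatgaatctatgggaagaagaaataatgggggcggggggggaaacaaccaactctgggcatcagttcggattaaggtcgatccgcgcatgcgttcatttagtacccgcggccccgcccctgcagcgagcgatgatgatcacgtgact
The matches begin 185, 186 and 201 bases before the start. The decamer reads the same on both strands, and a match is a description, not a binding site; the known p53 elements of Mdm2 lie in its first intron, outside this window. Windows of 300 bases (250 before to 50 after the start) were searched. Of the 41 genes with a RefSeq entry 10 held at least 1 match (24.4%), against 9.55% of the 27025 genes in the promoter table. These 10 were Ccng1, Mdm2, Bax, Trp53, Gadd45a, Sesn1, Ei24, Aen, Bmf and Birc2. A gene can have several windows, and counted by window 11 of 56 held a match (19.6%), against 8.36% of 32851. The 7 genes without an entry were Bik, Pmaip1, Tnfrsf10b, Trp63, Zmat3, Perp and Trp53inp1. Of the 10 genes with a match 0 were called, with a median log2 fold change of -0.08 and a range from -0.31 to 0.05. The other 31 genes with a window, 30 of them tested, held the 4 called genes and had a median of -0.05. With 8.82% of all tested genes called, counts among so few genes say nothing about the decamer.

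Ccng1, cyclin G1, is one of the most reliably p53-dependent transcripts (ENSMUSG00000020326, chromosome 11, 40748552 to 40755311). It was at 474 and 396 CPM in EF and 448 and 451 CPM in noEF. The EF libraries enclosed both noEF libraries, and the log2 fold change was -0.05 (SE 0.09, interval -0.24 to 0.15, edgeR adjusted p = 0.815). Per kilobase of exon, the scale on which genes can be compared, Bax (151 CPM per kb on average over the 4 libraries) and Ccng1 (126) had the highest levels of the 48 genes, followed by Mcl1 (78.8), Phlda3 (78.0) and Tnfrsf1a (77.5), and Trp53 was at 23.2. So several p53 targets were abundant in both groups.

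**Figure D4:**
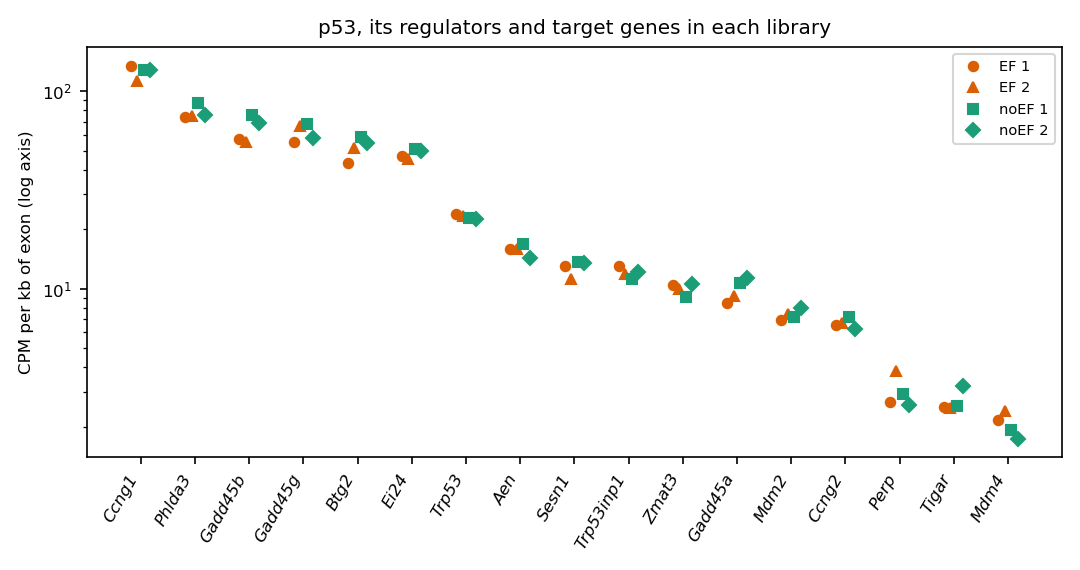
Level of p53, its regulators, growth arrest and stress genes (not all p53-induced) and p53 target genes in each library. The axis is CPM per kilobase of exon on a log scale, with genes ordered by mean level from Ccng1 to Mdm4. EF (orange) and noEF (green) libraries lie close together for each gene; Gadd45b is the single gene of this plot that passed the test.

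Of the 7 growth arrest and stress genes 1 was called (14.3%, against 8.82% of all tested genes), and it was lower. Gadd45b, a stress and growth factor responsive gene that acts upstream of p38 and JNK kinases (ENSMUSG00000015312, chromosome 10, 80930073 to 80932204), was at 90.6 and 87.9 CPM in EF and 120 and 109 CPM in noEF. Both EF libraries were lower, with a fold change of -0.36 on the log2 scale (SE 0.09; adjusted p = 0.0232 in edgeR), 1.29-fold lower than noEF. It was the least stable of the 4 calls: the value went to -0.11 (edgeR adjusted p = 0.468) once the trend was removed and to -0.28 (edgeR adjusted p = 0.062) with library totals, and the call was also lost without EF 1, without EF 2 and without noEF 1 (-0.39, -0.34 and -0.29). Gadd45a, the member of this family that p53 induces, was at 14.96 and 16.2 CPM in EF and 18.7 and 20.1 CPM in noEF, lower in both EF libraries without passing (-0.31, SE 0.15, edgeR adjusted p = 0.236). Gadd45g overlapped at 65.3 and 78.5 CPM in EF and 80.5 and 68.3 CPM in noEF (-0.05), and it turned to 0.31 and was called higher (edgeR adjusted p = 0.0291) once the trend was removed. Btg2, an antiproliferative p53 target, was at 119 and 142 CPM in EF and 160 and 150 CPM in noEF (-0.25, edgeR adjusted p = 0.12). Sesn1, a sestrin that restrains mTORC1, and Ccng2, a FOXO-regulated cyclin, were at -0.16 and -0.02. All 7 values were below 0 as reported, with a median of -0.16, where 51.1% of all tested genes were above 0. This shared sign did not hold throughout: 3 of the 7 were above 0 with library totals (median -0.07, 0 called), 2 without EF 1, 1 without EF 2, 2 without noEF 1 and 1 once the trend was removed.

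Of 7 further genes, listed as p53 targets, 0 were called (against 8.82% of all tested genes), and their median was 0.03. Phlda3, which represses AKT, was at 115 and 117 CPM in EF and 136 and 119 CPM in noEF, where noEF 1 alone stood out (-0.13, interval -0.33 to 0.06), and its value was 0.14 once the trend was removed (edgeR adjusted p = 0.285). Zmat3, an RNA-binding tumour suppressor, was at 119 and 114 CPM in EF and 104 and 121 CPM in noEF (0.06). Ei24, an autophagy protein of the endoplasmic reticulum, had the smallest p of the 7, at 229 and 221 CPM in EF and 249 and 242 CPM in noEF (-0.12, SE 0.08, edgeR adjusted p = 0.393). Trp53inp1, Aen (a nuclease) and Tigar (a regulator of glycolysis) were at 0.09, 0.03 and -0.20. Perp, a desmosomal protein, was low at 5.00 to 7.48 CPM, with EF 2 the highest library (0.24, interval -0.31 to 0.80). Summed over the 14 genes of the last 2 groups, levels were 1505 and 1439 CPM in EF and 1594 and 1545 CPM in noEF. The EF sums were the lower ones, and Ccng1 and Ei24 made up a large part of them. For these 14 genes, 4 log2 fold changes were above 0 and 10 below, with a median of -0.09, and with library totals 7 were above and 7 below.

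The same question was put to 75 further genes of the pathways, chosen by function, of which 67 could be tested. Of these 1 was higher and 5 were lower, 8.96% of those tested against 8.82% of all tested genes, with a median of 0.05. Chek1, the replication checkpoint kinase that is abundant in dividing cells, was higher at 17.6 and 15.8 CPM against 7.80 and 9.52 CPM (log2 fold change 0.95, SE 0.18, edgeR adjusted p = 0.00508). Of 25 other p53 targets 16 were above 0 and 9 below, with a median of 0.07. Called were 3 of the 25 (12%, against 8.82% of all tested genes), all lower. They were Gdf15, a stress-induced cytokine (26.1 and 33.7 against 47.0 and 43.5 CPM; -0.60, edgeR adjusted p = 0.0149), Dcxr, a sugar reductase (42.2 and 52.8 against 84.1 and 67.7 CPM; -0.68, edgeR adjusted p = 0.0105), and Abhd4, a lipid hydrolase (1005 and 1024 against 1268 and 1241 CPM; -0.31, edgeR adjusted p = 0.0231). Without EF 1 the Gdf15 call was lost (-0.43, edgeR adjusted p = 0.17). Once the trend was removed Dcxr was at -0.31 and Gdf15 at -0.40 (edgeR adjusted p = 0.0352 and 0.043), and with the replicate block added both calls were lost (edgeR adjusted p = 0.096 and 0.0946). Cdkn1a, which encodes the p53-induced cell cycle inhibitor p21, was at 374 and 380 CPM in EF and 460 and 416 CPM in noEF. Both EF libraries were below both noEF libraries, and the difference of -0.22 (SE 0.08) did not pass (edgeR adjusted p = 0.123). Eda2r, Rrm2b and Ppm1d, further p53 targets, were at 0.09, 0.09 and 0.00. For the 14 genes summed above and these 25 together, 20 values were above 0 and 19 below, with a median of 0.004. With library totals 24 were above and 15 below, and once the trend was removed 18 and 21.

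Of 22 tested genes of other apoptosis steps 12 were above 0 and 10 below, with a median of 0.01. Called were 2 of the 22 (9.09%, against 8.82% of all tested genes), both lower. Bag3, a stress-induced co-chaperone with a survival role, was at 59.2 and 64.4 CPM in EF against 97.6 and 100.4 CPM in noEF (-0.68, SE 0.10, edgeR adjusted p = 5.15e-04). Its call was kept in 13 of 13 alternatives, as was that of Chek1. Cycs, which encodes cytochrome c, was lower by a smaller margin (456 and 466 against 610 and 523 CPM; -0.30, edgeR adjusted p = 0.0475) and lost its call in 6 of 13 alternatives, as did Abhd4. These 2 calls were lost without EF 1, without EF 2 and without noEF 1 (Cycs -0.28, -0.31 and -0.18; Abhd4 -0.29, -0.32 and -0.29), with library totals, and with the replicate number as a block (edgeR adjusted p = 0.11 for Cycs and 0.0872 for Abhd4). Among 10 genes of lytic death, such as the necroptosis pair Ripk3 and Mlkl and the gasdermins, 6 could be tested and 0 passed. Of 14 modifiers and kinases upstream of p53, Chek1 was the 1 called gene (7.14%, against 8.82% of all tested genes). Their median was 0.24, with 10 above 0 and 4 below (71.4% above, against 51.1% of all tested genes). Atm was at 6.78 and 3.32 CPM in EF and 2.70 and 2.29 CPM in noEF, with EF 1 the high library. Its log2 fold change of 1.02 (SE 0.36) did not pass (edgeR adjusted p = 0.0974). Cdkn2a, whose ARF product blocks MDM2, was at 28.9 and 31.8 CPM in EF and 43.0 and 36.8 CPM in noEF (-0.39, edgeR adjusted p = 0.0753).

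Genes with lower values were shorter on the median. Across the 45 genes the log2 fold change had Pearson's r of 0.17 with log2 exon length (Spearman's rho with exon length 0.22), and across 13438 tested genes with a GENCODE position it was 0.19 (rho 0.29); genes of a library share its composition and are not independent. Median exon length was 4888.5 bases for the 20 genes above 0 and 3903 bases for the 25 below. Over the 13438 tested genes with a position it was 5356 and 3714 bases. After removal of the trend in each library, 4 genes were called higher (Casp2, Bok, Mcl1 and Gadd45g) and Casp6 was called lower, so Casp2, Bok and Casp6 kept their calls, and Gadd45b did not. Its exons span 1589 bases in all and those of Bax 1576.

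**Figure D5:**
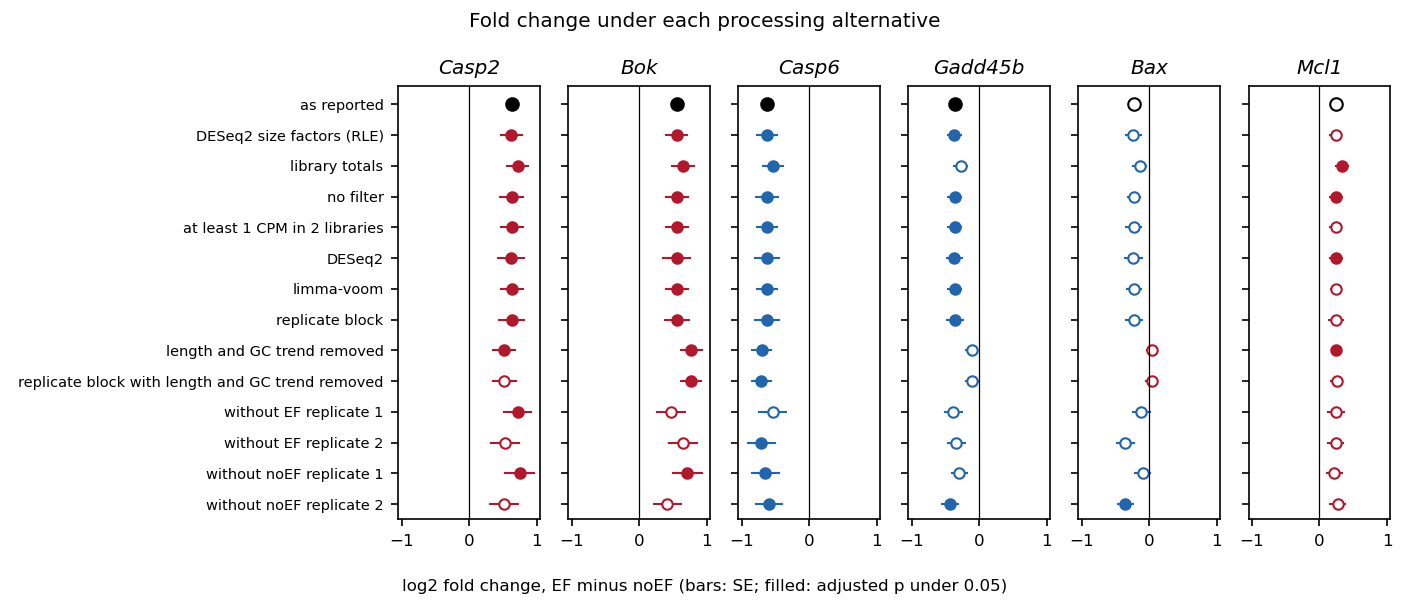
Log2 fold change (horizontal axes; bars are SEs) of 6 genes as reported (black) and under 13 processing alternatives, with filled points at an adjusted p under 0.05. Casp2, Bok and Casp6 keep their side of 0 and lose calls when single libraries are left out; Casp2 also loses its call with block and trend removal together, and Gadd45b and Bax move toward 0 once the trend is removed.

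Markers of cell types were read beside these values, since bulk counts cannot tell fewer cells of a type from less RNA per cell. Markers of neural stem and progenitor cells, the labelled cell type, were all detected. Their 8 levels summed to 5133 and 5445 CPM in EF and 6946 and 6574 CPM in noEF, mostly Fabp7 and Vim. Called lower were 2 of 8, Fabp7 and Sox9. For this and the marker counts below, 4.99% of all tested genes were called lower and 3.83% higher. Without a call, Sox2, Vim and Hes5 were below 0 (-0.27, -0.22 and -0.37), and Nes, Msi1 and Pax6 were above 0 (0.14, 0.01 and 0.12). Astrocyte markers summed to 4127 and 3837 against 4229 and 4445 CPM, a sum made mostly of Slc1a3, which was not called (2992 and 2733 against 2484 and 2638 CPM). Of these 6 markers 3 were lower, namely Gfap (237 and 241 against 641 and 671 CPM, 2.74-fold lower), Gja1 (1.53-fold lower) and Aqp4 (67.3 and 62.8 against 89.3 and 97.6 CPM). Oligodendrocyte markers summed to 446 and 495 against 465 and 463 CPM (1 of 6 lower) and neuronal markers to 568 and 545 against 459 and 536 CPM (0 of 6 called). The neuronal sum was made mostly of Map2 (0.20). Tubb3 was also above 0 (0.19), and Dcx, Snap25, Syn1 and Rbfox3 were below 0 (-0.46, -0.53, -0.19 and -0.18). Of 8 microglia and macrophage markers, cells that clear apoptotic bodies, 6 were at 0 in all libraries, and the sum was 3.31 and 4.76 CPM in EF and 6.91 and 6.78 CPM in noEF, mostly Cd68. Endothelial markers summed to 2.49 and 1.75 against 1.29 and 0.743 CPM (1 of 6 at 0), and fibroblast and mural markers to 9.33 and 5.36 against 3.87 and 3.42 CPM, where Acta2 was higher and 1 of 6 was at 0. The part of these shifts in the results was not tested.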

How the data were processed

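Polyadenylated RNA of 4 libraries was sequenced. The table deposited by the authors holds unnormalised counts per gene in whole numbers. Per the submitters' processing notes, HISAT2 2.0.4, StringTie 2.2.1, DESeq2 1.44.0 and GRCm38 were used, and for the counting step and strand no setting is given in the sources used here. Per the labels' protocols, cDNA was made from random hexamers and amplified by PCR, and no strand-keeping step is described. Groups came from sample titles and columns were matched by library name. Counts were tested with edgeR 4.0.16 in R 4.3.3: filterByExpr (minimum count 10, minimum total 15), TMM scaling, robust quasi-likelihood F test, Benjamini-Hochberg adjustment over 14263 genes, called at an adjusted p under 0.05. CPM values use TMM-scaled library sizes, an SE is the fold change (log2) over the square root of F, and 95% intervals are unadjusted. Intervals and limits cover counting error or library spread only.

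Replicates were no copies of each other, since chi-square over genes, per degree of freedom, was 17.4 in EF and 18.3 in noEF. GENCODE M21 (GRCm38) gave positions, exon lengths and GC content. The length and GC trend was fitted per library with mgcv and removed by offsets; genes without a position had no offset. The main edgeR fit, but not the alternatives, was tested on simulated counts. Those counts varied less between replicates than these libraries did, so they were an easier case. The genes and lists were chosen with earlier results of these data known, so no list was tested as a set. Full values are given for called genes, for Trp53, Mdm2, Bax, Bcl2, Bcl2l1, Mcl1, Casp9, Apaf1, Ccng1 and Gadd45a, and for the gene with the smallest p in each role. From the wider list, called genes and Cdkn1a, Rrm2b, Ppm1d and Eda2r were named, and 1 further gene of this rule is not reported here. Other genes were named after their values were seen. Alternatives were DESeq2's size factors, library totals, no filter, a filter at 1 CPM (in 2 or more libraries), limma-voom (limma 3.58.1), DESeq2 1.42.0, the replicate number as a block, the length and GC trend removed with and without that block, and each library left out.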

Additional observations from a re-analysis of the deposited data

How the results depend on the processing

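Across 13 alternatives, Casp6 was lower and Casp2 and Bok were higher in each, with calls kept in 12, 10 and 10 of them and adjusted p-values from 0.00197 to 0.122, 0.00313 to 0.123 and 0.00448 to 0.236; Gadd45b was lower in each and called in 7 (0.00266 to 0.55). Among the 48 genes, 2 higher and 2 lower became 4 and 1 with library totals (80% higher, not 50%), 4 and 1 with the length and GC trend removed, and 1 and 1 with the replicate block and the trend removed. Leaving out 1 library gave 0 to 2 higher (1 without EF 1, 1 without EF 2, 0 without noEF 2; the 1 without EF 2 is Trp73, which then passed the filter through its 30 counts in EF 1, with 0 in the others) and 0 to 4 lower (0 without EF 1, 1 without noEF 1, 4 without noEF 2). The wider list's 1 higher and 5 lower became 3 lower with library totals, 2 higher with no filter and with the trend removed, and 1 lower with block and trend; without 1 library they were 1 to 2 higher and 2 to 7 lower (2 higher without EF 2; 2 lower without EF 1, 3 without noEF 1). Over all genes, 546 higher and 712 lower (43.4% higher) became 1138 and 505 with library totals (69.3%), 915 and 1203 with no filter, 271 and 393 with block and trend, and 217 to 790 and 337 to 1065 without 1 library (lowest without EF 1). The cause of these moves was not tested; fewer samples enter the fits without a library.

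Of the 45 tested genes 6 changed sign with library totals, 10 with the trend removed and 3 to 7 without 1 library; Gadd45g, called higher with the trend removed (0.31), was the 1 with a call after turning. Among genes given in full that turned, library totals gave Mdm2 0.019, Bcl2 0.034 and Ccng1 0.040. Trend removal gave Bax 0.032, Casp9 -0.023, Rrm2b -0.071 and Eda2r -0.046, and with the replicate block added 0.032, -0.023, -0.069 and -0.052. DESeq2's size factors and DESeq2 gave Ppm1d -0.000146 and -0.000148. Without 1 library the ranges were -0.14 to 0.0060 for Mdm2, -0.12 to 0.014 for Bcl2, -0.012 to 0.035 for Casp9, -0.18 to 0.077 for Ccng1, -0.027 to 0.036 for Ppm1d (-0.011 without noEF 2) and -0.073 to 0.24 for Eda2r.

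The replicate block left 978 genes called, 410 higher and 568 lower, and the same 4 of the 48. Deviations of libraries with the same replicate number had a Pearson correlation of -0.09 across genes, and no label says that numbers pair cultures. Replicate numbers come from the sample titles, and by library name EF 2 and noEF 2 do not share a number. Depth limits Birc3, Bik, Trp63 and Trp73. No alternative in the plan was left out.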
